A study of Mus musculus with 13 samples.

Results

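The imprinted Igf2r and Airn locus was followed through 13 mouse libraries made by RRBS (reduced representation bisulfite sequencing), an assay of cytosine methylation near the cut sites of the enzyme MspI. The locus was taken as all CpGs on chromosome 17 from 12870000 to 12970000 (mm9), whatever their level, and 232 CpGs there had a read in at least 1 library, of 3340630 CpGs read in the whole series. The Airn promoter region (12932000 to 12938000, in an intron of Igf2r) held 46 of them and the Igf2r promoter region (12959000 to 12966000) held 82. In single libraries 51 to 171 CpGs of the locus were read, and 26 were read in each of the 13, of which 7 lay in the Airn region and 6 in the Igf2r region.

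The libraries came from mouse induced pluripotent stem cells (iPSCs), which are made by reprogramming differentiated cells, and from cells of the reprogramming series. They were 2 female iPSC libraries labelled XaXa (7 and 8), meaning 2 active X chromosomes, 4 female iPSC libraries labelled XO (3, 5, 6 and 9), meaning a single X, and 3 male iPSC libraries (1, 2 and 4). Male cells positive and negative for SSEA1, a surface antigen that appears during reprogramming, gave 1 library each, and male mouse embryonic fibroblasts (MEFs) gave 2 (4 and 5). Feeder cells had been depleted from the iPSCs, and the sources used here give no strain, passage, age or day of sorting. The labels do not say that libraries of a group came from separate cultures, so each p-value reflects the spread among the libraries alone, which may be technical. The comparisons ask how female iPSCs with 2 active X chromosomes differ from those with 1 X and from male iPSCs, and how iPSCs differ from the fibroblasts.

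Igf2r encodes the receptor that binds insulin-like growth factor 2 and takes it into the cell for breakdown. It is expressed mainly from the maternal chromosome in most mouse tissues. Airn is a long noncoding RNA that starts inside Igf2r, is transcribed in the antisense direction and silences Igf2r on the paternal chromosome. The Airn promoter lies in an imprint control region that is methylated in the egg and not in sperm, so a cell with 1 chromosome from each parent normally carries 1 methylated and 1 unmethylated copy. The Igf2r promoter is not marked in the germ cells and gains methylation on the silent paternal copy later, in differentiated tissues.

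The promoters are shown because they differ in what RRBS can read. Each sequence runs 5′ to 3′ on the strand of its gene, from 250 bases before to 50 bases after the start (RefSeq, GRCm38.p6), and capitals mark CG dinucleotides. Igf2r lies on the minus strand at chr17:12769657-12769956 and Airn on the plus strand at chr17:12741061-12741360.
Igf2r: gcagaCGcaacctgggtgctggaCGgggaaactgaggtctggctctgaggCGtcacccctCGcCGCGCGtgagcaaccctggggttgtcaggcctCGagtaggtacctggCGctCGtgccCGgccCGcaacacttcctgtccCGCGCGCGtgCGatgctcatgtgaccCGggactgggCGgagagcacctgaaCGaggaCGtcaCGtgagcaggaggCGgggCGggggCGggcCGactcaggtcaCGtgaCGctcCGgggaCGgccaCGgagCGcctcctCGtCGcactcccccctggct
Airn: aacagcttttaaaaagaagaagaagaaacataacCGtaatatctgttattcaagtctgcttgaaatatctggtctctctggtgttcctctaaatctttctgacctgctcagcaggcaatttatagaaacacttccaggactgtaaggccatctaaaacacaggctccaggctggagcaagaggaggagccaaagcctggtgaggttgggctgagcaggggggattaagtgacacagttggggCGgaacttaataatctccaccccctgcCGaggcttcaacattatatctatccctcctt
The Igf2r promoter held 34 CG and 3 copies of CCGG, the MspI site, and 92.3% of 32851 mouse promoters of this length held fewer CG. The Airn promoter held 3 CG and 0 CCGG (23.3% of promoters held fewer CG, and 52.8% held at least 1 CCGG). The short contexts of 31 of 31 deposited CpGs matched the Igf2r promoter at 12962523 to 12962822 of the deposited tables, against 3 for the next best placement, which puts the Igf2r start at 12962572. The Airn promoter could not be placed in this way, so its region is that of the rule and was read at CpGs 26069 to 28116 bases inside the Igf2r start. In GRCm38.p6 the annotated Airn start is 28395 bases inside it. By these distances the CpGs read lay downstream of the Airn start, in its direction of transcription, and not in the printed Airn promoter. The name Airn promoter region is that of the rule.

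Read totals over CpGs ranged from 4784488 in XO 9 to 143148634 in XaXa 8. Median depth on X relative to autosomes and to male iPSCs was 1.42 and 1.51 in XaXa, and 1.33, 1.21, 1.16 and 1.33 in the libraries labelled XO 3, 5, 6 and 9. It was 1.17 in each SSEA1 library, 1.07 in MEF 4 and 1.57 in MEF 5. Among the libraries labelled XO or male, XO 3, XO 9 and MEF 5 stood furthest above the male iPSCs, and the differences of region levels that use them are given with and without them. Depth on chromosome 17 relative to the other autosomes lay between 0.858 (XO 3) and 1.06 (male iPSC 2). The share lying over 50 bases past a cut site was taken among CpGs of the plus strand at or shortly past a cut site read in the library. It was 22.4% to 23.4% in the MEF and SSEA1 libraries, against 0.132% to 2.85% in iPSCs. Reads thus reached further in the MEF and SSEA1 libraries. A difference between iPSCs and MEFs over all CpGs and a difference in read reach cannot be told apart, and values on CpGs read in all 13 libraries are given beside the differences of the promoter regions.

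The Airn promoter region had lower levels in every female iPSC library than in any male one. A level is the percent of all reads over the CpGs of a region that were methylated. XaXa 7 was at 15.2% and XaXa 8 at 15.1%. The libraries labelled XO 3, 5, 6 and 9 were at 4.85%, 10.3%, 43.9% and 31.3%. Male iPSC 1, 2 and 4 were at 61.9%, 59.9% and 46.7%. The libraries labelled XO lay on both sides of the XaXa pair. SSEA1 positive cells were at 20.8%, SSEA1 negative cells at 27.5%, and MEF 4 and 5 at 86.0% and 55.4%. Both MEF libraries lay above every female iPSC library and among or above the male iPSCs, and both SSEA1 libraries lay below the male iPSCs and MEFs.

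**Figure D1:**
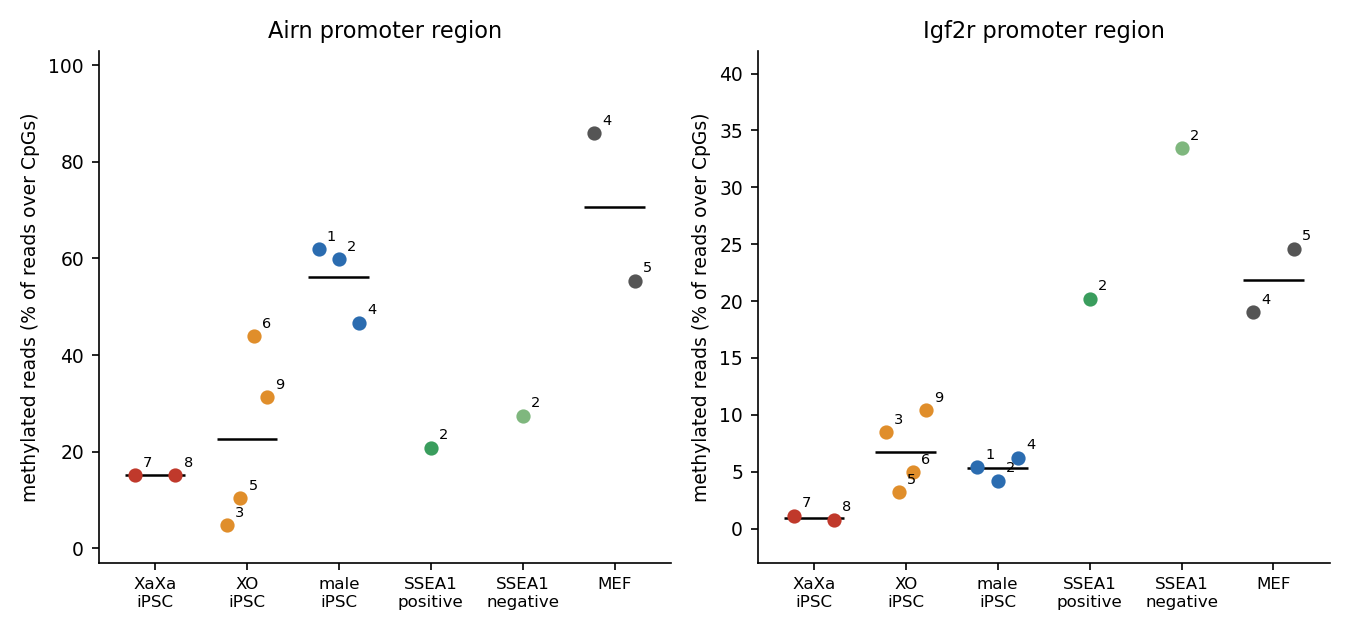
Methylation level in percent of reads over CpGs (vertical axes, of different range) in the Airn and Igf2r promoter regions, 1 point per library with its replicate number, and a line at the mean of each group with over 1 library. In the Airn region the female iPSCs lie below the male iPSCs, while in the Igf2r region all 9 iPSC libraries lie below the MEF and SSEA1 libraries.

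The depth behind these levels differed greatly. A read can cover several CpGs and is then counted at each. Reads were therefore also counted at only the deepest CpG of each block of neighbouring CpGs, which leaves other reads out. These counts gave 95% Wilson intervals for counting error alone. With 57 and 585 such reads, the intervals were 7.29% to 25.3% in XaXa 7 and 11.4% to 17.1% in XaXa 8. In the libraries labelled XO they were 1.15% to 13.98% (48 reads) in XO 3, 5.76% to 18.1% (96 reads) in XO 5, 36.7% to 45.8% (442 reads) in XO 6 and 15.2% to 58.3% (15 reads) in XO 9. XO 6 therefore stood above XO 3 and XO 5 beyond counting error, and the interval of XO 9 overlapped those of XO 5 and XO 6. In male iPSC 1, 2 and 4 the intervals were 46.0% to 71.3%, 48.4% to 77.3% and 38.1% to 52.3%, from 54, 39 and 184 reads. The interval of XO 6 overlapped that of male iPSC 4, and the interval of XO 9 overlapped those of male iPSC 1, 2 and 4. For XO 6 and XO 9 the separation of female from male libraries was therefore within counting error. The other cells were read thinly: SSEA1 positive cells by 10 reads (5.67% to 51.0%), SSEA1 negative cells by 21 (24.5% to 63.5%), MEF 4 by 8 (67.6% to 100%) and MEF 5 by 41 (38.7% to 67.9%). For SSEA1 negative cells the level at the deepest CpG of each block was 42.9%, against 27.5% over all CpGs. Of its 9 methylated reads, 4 lay at a CpG apart from the others (12935913).

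The Airn level averaged 15.1% ± 0.0309 in XaXa (SD, n = 2), 22.6% ± 18.2 in XO (SD, n = 4), 56.1% ± 8.26 in male iPSCs (SD, n = 3) and 70.7% ± 21.6 in MEFs (SD, n = 2). In this order XaXa and XO did not differ beyond their spread, nor did male iPSCs and MEFs. The difference of XaXa minus XO was -7.44 points (exact two-sided permutation p = 0.667), and -0.333 points without XO 6 or -12.0 points without XO 3 and XO 9. The difference of XaXa minus male iPSCs was -41.0 points, and its exact permutation p of 0.1 is the smallest that 2 libraries against 3 allow. The difference of XO minus male iPSCs was -33.6 points with no overlap (exact permutation p = 0.0571, with 0.0286 the lowest value in reach), and -29.0 points without XO 3 and XO 9 (exact permutation p = 0.1, the smallest possible). Adjusted by the Benjamini-Hochberg method over 12 comparisons, the exact permutation p was 0.2 for both. None of these reached 0.05.

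Against the fibroblasts, the Airn difference was -55.5 points for XaXa (exact permutation p = 0.333) and -48.1 points for XO (exact permutation p = 0.0667), each the smallest p possible and with no overlap. For male iPSCs minus MEFs it was -14.5 points (exact permutation p = 0.4). Without MEF 5 these were -70.8, -63.4 and -29.8 points. Without MEF 4 they were -40.3, -32.8 and 0.740 points, so the sign for male iPSCs rested on that thinly read library. Without XO 3 and XO 9, XO minus MEFs was -43.6 points. On the 7 CpGs read in all 13 libraries the differences were -62.5 points for XaXa, -54.6 points for XO and -17.7 points for male iPSCs. The last was -25.8 points on the 4 CpGs with 5 reads or more in every library of that pair. Adjusted over the 12 comparisons, the exact permutation p was 0.444, 0.2 and 0.48 for XaXa, XO and male iPSCs over all CpGs.

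Single CpGs of the Airn region kept the order of most libraries but not of all. The 7 CpGs with reads in each library (12934456 to 12935136) spanned 5% to 20% in XaXa 7, 9.95% to 16.7% in XaXa 8, 0% to 10.5% in XO 3, 8.33% to 13.9% in XO 5 and 34.2% to 46.8% in XO 6. They spanned 42.9% to 80% in male iPSC 1, 58.3% to 66.7% in male iPSC 2 and 27.5% to 50.4% in male iPSC 4. In these 8 libraries each CpG had at least 12 reads, and XO 6 overlapped the range of male iPSC 1 and 4. At the 4 CpGs of the first fragment XO 6 lay above male iPSC 4 at each, so the separation of female from male libraries over the region did not hold there. XO 9 spanned 0% to 50%, with 0% at the 4 CpGs of the fragment that starts at 12934456 (3 reads) and more at the 3 CpGs of the other (8 reads). MEF 5 spanned 46.7% to 60%. MEF 4 was at 100% at 6 of the 7 CpGs, with 6 reads at each CpG of the first fragment and 2 at each of the other. In SSEA1 positive cells the first fragment was at 40% and the other at 0%, from 5 and 2 reads. In SSEA1 negative cells they were at 16.7% and 100%, from 6 reads and 1 read. Most reads came from these fragments, and where they started at 12934456 the CpGs 53 to 65 bases further were reached in the MEF and SSEA1 libraries (15 to 30 reads over CpGs) and in 0 of 9 iPSC libraries. On CpGs that every library compared read at least 5 times, XaXa minus male iPSCs was -44.9 points (7 CpGs) and XO minus male iPSCs was -39.8 points (3 CpGs).

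**Figure D2:**
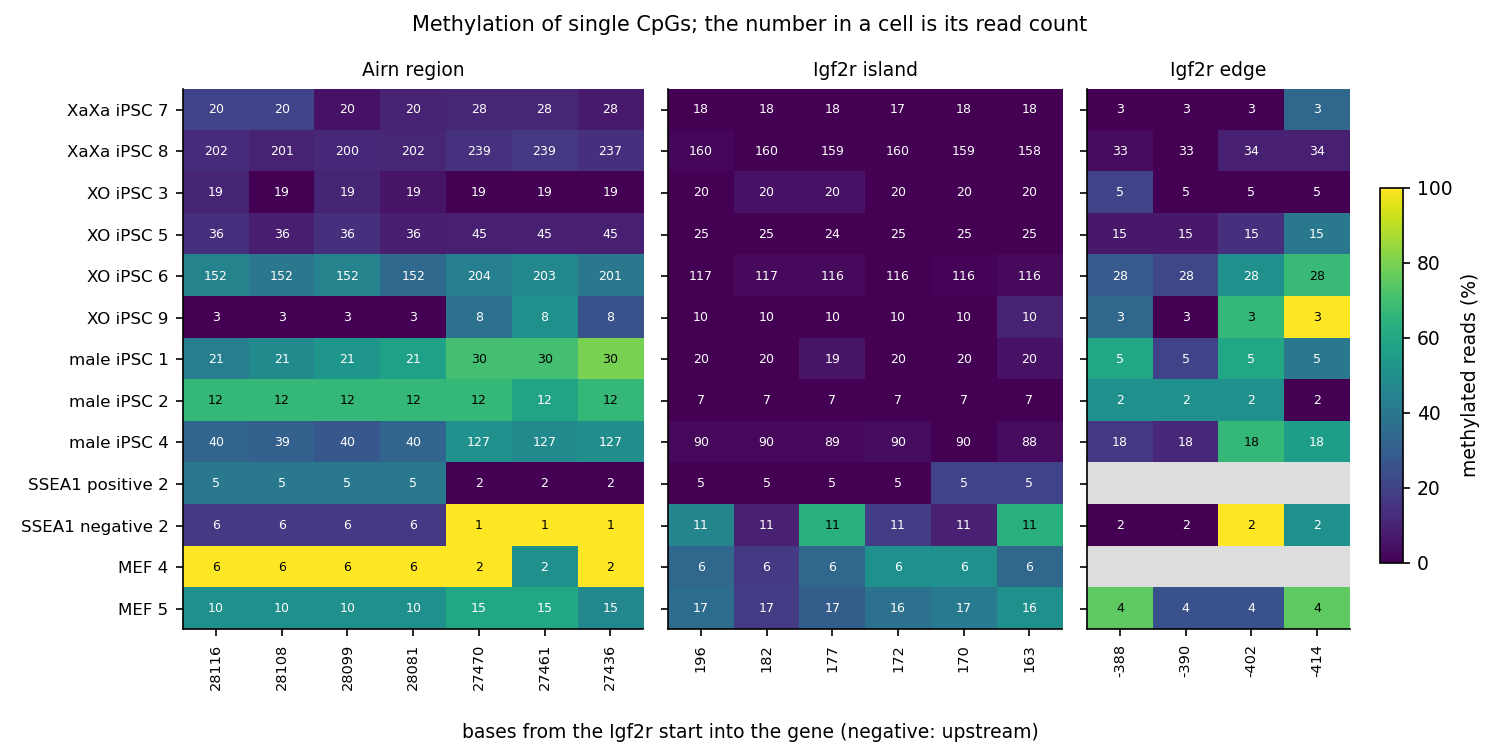
Methylation of single CpGs in percent of reads (colour scale) by library (rows) and by distance in bases from the matched Igf2r start into the gene (columns, negative upstream). The number in each cell is its read count, grey cells had no read, and the panels hold 7, 6 and 4 CpGs. The panel named Igf2r island holds only the 6 deepest CpGs of the Igf2r region. They are near 0 in iPSCs and raised in MEF libraries and SSEA1 negative cells.

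The Igf2r promoter region had low levels in all iPSCs and higher ones in MEFs and SSEA1 negative cells, while the level of SSEA1 positive cells depended on the CpGs compared. XaXa 7 and 8 were at 1.15% and 0.801%. The libraries labelled XO 3, 5, 6 and 9 were at 8.50%, 3.22%, 4.94% and 10.4%. Male iPSC 1, 2 and 4 were at 5.42%, 4.23% and 6.23%. The 9 iPSC libraries averaged 4.99% ± 3.15 (SD, n = 9), with the XaXa pair lowest and the male iPSCs within the range of XO. SSEA1 positive cells were at 20.2%, SSEA1 negative cells at 33.4%, and MEF 4 and 5 at 19.0% and 24.6%. Over all CpGs no iPSC library overlapped these 4, and the SSEA1 positive library lay between the MEF libraries. With reads counted at only the deepest CpG of each block, XO 9 was at 13.3% (15 reads, interval 3.74% to 37.9%). SSEA1 positive cells were then at 14.3% (7 reads, 2.57% to 51.3%) and MEF 4 at 25% (12 reads, 8.89% to 53.2%). These thinly read libraries were not separated beyond counting error. On the 6 CpGs read in all 13 libraries the iPSCs were at 0% to 2.23%, SSEA1 positive cells at 6.67% (2 of 30 reads over CpGs), SSEA1 negative cells at 34.8%, and MEF 4 and 5 at 36.1% and 35%. These CpGs lie in a single block (12962376 to 12962409), so the same reads were counted at several of them. SSEA1 positive cells had 5 reads at each of these CpGs and MEF 4 had 6. The SSEA1 positive value was nearer to the iPSCs than to the MEFs. At the deepest CpG of the block, however, 0 of its 5 reads were methylated (interval 0% to 43.4%). That interval contains the iPSC and the MEF levels, so the SSEA1 positive library could not be placed with either.

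The mean Igf2r level was 0.975% ± 0.247 in XaXa (SD, n = 2), 6.76% ± 3.27 in XO (SD, n = 4), 5.29% ± 1.01 in male iPSCs (SD, n = 3) and 21.8% ± 3.95 in MEFs (SD, n = 2). Male iPSCs minus MEFs was -16.5 points (exact permutation p = 0.1), XO minus MEFs was -15.0 points (exact permutation p = 0.0667) and XaXa minus MEFs was -20.8 points (exact permutation p = 0.333). Each is the smallest p its libraries allow, and each pair of groups did not overlap. Over the 12 comparisons the adjusted exact permutation p was 0.2, 0.2 and 0.444. Without MEF 5 these differences were -13.7, -12.3 and -18.0 points, and XO minus MEFs was -17.7 points without XO 3 and XO 9. On the 6 CpGs that every library compared read at least 5 times, and so within the reach of all, male iPSCs minus MEFs was -34.3 points, XO minus MEFs was -34.4 points and XaXa minus MEFs was -35.3 points. The direction was the same there and the difference larger.

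Among iPSCs, the Igf2r difference was -5.79 points for XaXa minus XO (exact permutation p = 0.133) and -4.31 points for XaXa minus male iPSCs (exact permutation p = 0.1, the smallest possible). For XO minus male iPSCs it was 1.47 points (exact permutation p = 0.457). Without XO 3 and XO 9, XaXa minus XO was -3.10 points and the sign of XO minus male iPSCs turned to -1.21 points. On the 6 CpGs read in all 13 libraries the 3 differences shrank to -0.930, -1.04 and -0.114 points. Adjusted over the 12 comparisons, the exact permutation p over all CpGs was 0.229, 0.2 and 0.499.

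In every iPSC library but XO 3 the Igf2r region was more methylated at its upstream edge than in the rest, a boundary drawn after the values were seen. The 4 CpGs 388 to 414 bases upstream of the matched start (12962960 to 12962986) are set here against the 78 others, called the island. These include a CpG that lies apart (12961209), with 1 read each in XO 6, XO 9 and male iPSC 4. On the island XaXa 7 and 8 were at 0.617% and 0.520%, the libraries labelled XO 3, 5, 6 and 9 at 8.89%, 0.355%, 1.44% and 3.08%, and male iPSC 1, 2 and 4 at 1.09%, 0% and 3.004%. The 0% of male iPSC 2 rests on 7 reads at its deepest CpG, which allow up to 42.9%. The 8.89% of XO 3 came from thinly read CpGs, since on the 6 CpGs read in all 13 libraries XO 3 was at 1.67%. SSEA1 positive and negative cells were at 20.2% and 33.3%, and MEF 4 and 5 at 19.0% and 23.8%. At the edge XaXa 7 and 8 were at 8.33% and 5.22%, the libraries labelled XO 3, 5, 6 and 9 at 5%, 16.7%, 41.96% and 50%, and male iPSC 1, 2 and 4 at 45%, 37.5% and 37.5%. XaXa lay below male iPSCs at the edge while XO lay on both sides, and XO 3 and XO 5 lay below XO 6 and XO 9, as in the Airn region. SSEA1 negative cells were at 37.5% and MEF 5 at 50% there, and SSEA1 positive cells and MEF 4 had no reads. The deepest edge CpG held 2 to 34 reads per library. Without the edge, XaXa minus XO was -2.87 points (exact permutation p = 0.533) and XaXa minus male iPSCs was -0.797 points (exact permutation p = 0.7). XO minus male iPSCs was 2.07 points (exact permutation p = 0.486). Since the edge was drawn after its values were seen, these are descriptions. The difference of male iPSCs minus MEFs was -20.03 points without them.

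The printed Igf2r promoter had few or no methylated reads in the iPSC libraries other than XO 3, several of them thinly read. It was at 0% and 0.853% in XaXa 7 and 8, at 13.95%, 1.49%, 1.81% and 0% in XO 3, 5, 6 and 9, and at 0%, 0% and 1.11% in male iPSC 1, 2 and 4. The libraries at 0% had 1 to 5 reads at the deepest CpG of the promoter, too few to bound the level below 60%. SSEA1 negative cells were at 20.5%, and MEF 4 and 5 were at 16.7% and 21.7%. SSEA1 positive cells were at 88.9%, from 9 reads over CpGs. XO 3 and the SSEA1 positive library stood apart here, and XO 3 had 6 methylated reads of 43 over CpGs. At the deepest CpG, 1 of 7 reads was methylated in XO 3, and SSEA1 positive cells had only 1 read. Both values may therefore rest on very few molecules. At the 6 deepest CpGs (163 to 196 bases inside the start) no iPSC library exceeded 10% at any CpG, while MEF 4 spanned 16.7% to 50% and MEF 5 spanned 17.6% to 50%.

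The Airn and Igf2r regions were also set against each other within each library. The Airn level minus the Igf2r level was 14.02 and 14.3 points in XaXa 7 and 8, -3.65, 7.12, 39.0 and 20.9 points in XO 3, 5, 6 and 9, and 56.5, 55.6 and 40.5 points in male iPSC 1, 2 and 4. It was 0.609 points in SSEA1 positive cells, -5.97 points in SSEA1 negative cells, and 66.9 and 30.8 points in MEF 4 and 5. The gap was widest in MEF 4 and in male iPSC 1 and 2, and it was near 0 or negative in XO 3 and the SSEA1 libraries. XO minus male iPSCs was -35.0 points (exact permutation p = 0.0571) and XaXa minus male iPSCs was -36.7 points (exact permutation p = 0.1, the smallest possible), both at 0.2 after adjustment over 4 comparisons. XO minus male iPSCs was -27.8 points without XO 3 and XO 9. XaXa minus XO was -1.65 points and male iPSCs minus MEFs was 1.98 points (exact permutation p = 1 for each). These were -8.87 points without XO 3 and XO 9, and -16.1 points without MEF 5.

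Around these regions the locus was methylated in every group. Outside them the level averaged 56.8% ± 3.29 in XaXa (SD, n = 2), 84.3% ± 3.31 in XO (SD, n = 4), 80.2% ± 1.97 in male iPSCs (SD, n = 3) and 70.0% ± 6.61 in MEFs (SD, n = 2), with 55.2% in SSEA1 positive and 67.4% in SSEA1 negative cells. XO 3 and XO 5, the lowest libraries of the Airn region, were at 89.1% and 83.0% here. In the 100 kb below the locus XaXa was at 51.6% ± 5.31 (SD, n = 2), XO at 77.6% ± 4.94 (SD, n = 4), male iPSCs at 82.6% ± 4.25 (SD, n = 3) and MEFs at 84.3% ± 1.68 (SD, n = 2). In the 100 kb above it XaXa was at 47.3% ± 6.15 (SD, n = 2) and XO at 74.8% ± 5.49 (SD, n = 4). Male iPSCs were at 75.3% ± 4.35 (SD, n = 3) and MEFs at 67.4% ± 0.925 (SD, n = 2) there, so MEFs were highest below the locus only. XaXa was thus the lowest of the replicated groups here, whereas XO lay below male iPSCs in the Airn region and overlapped them outside the promoter regions.

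**Figure D3:**
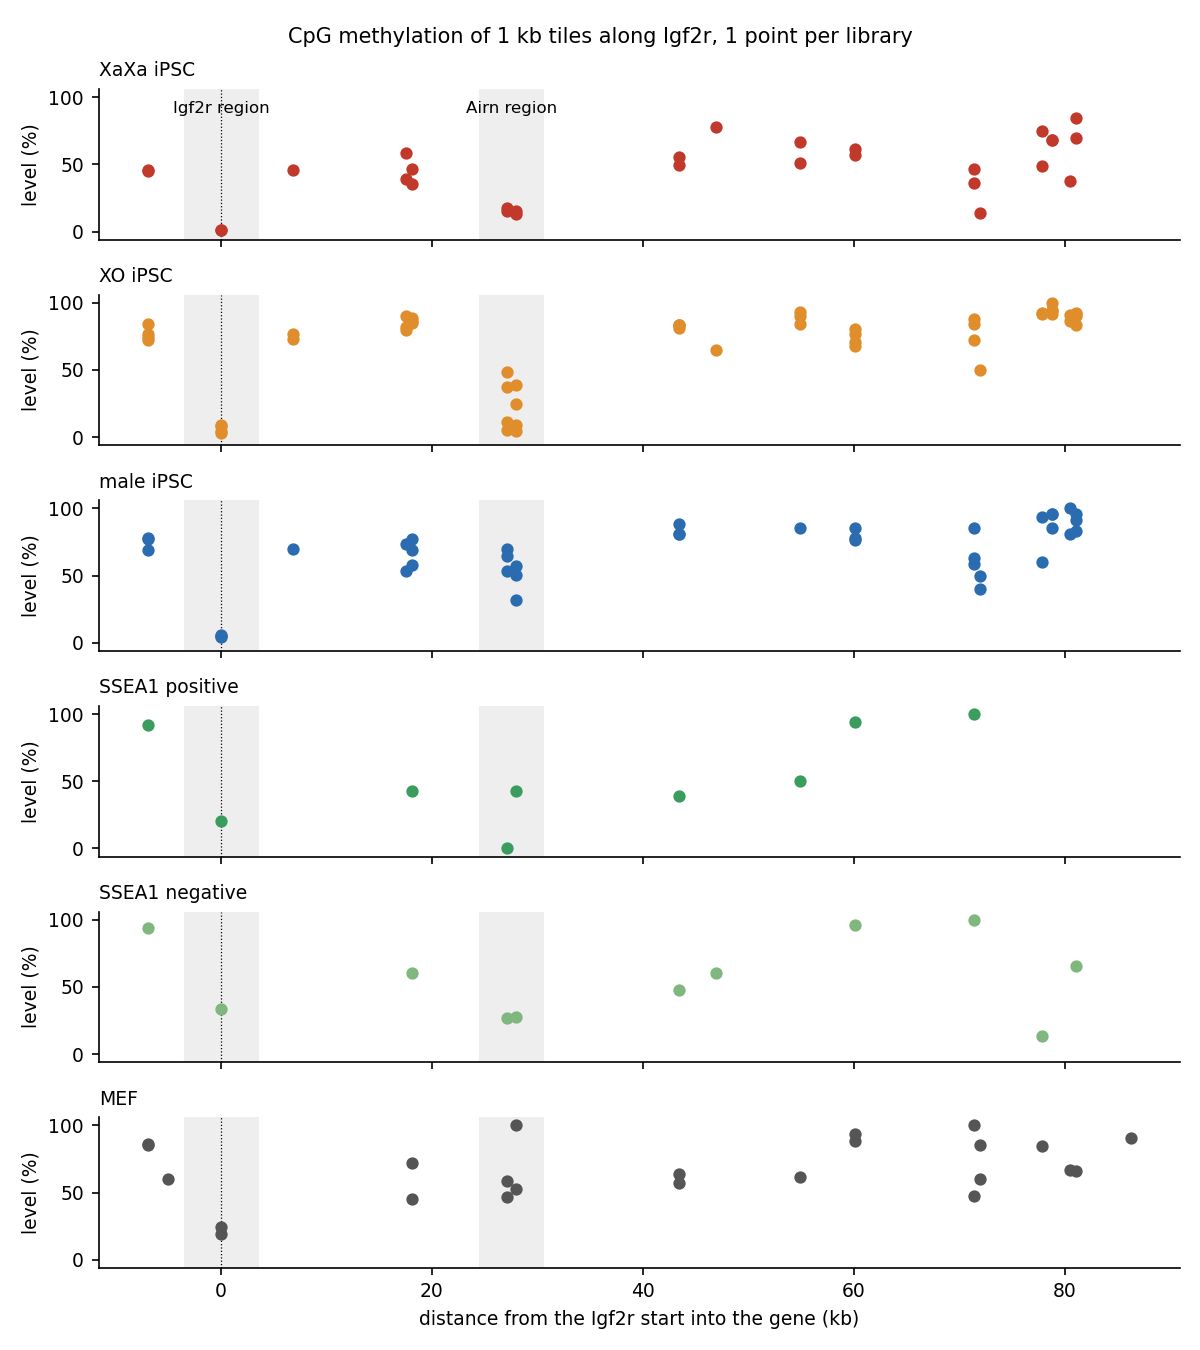
Level in percent of 1 kb tiles with at least 10 reads over CpGs in a library (vertical axes), by distance in kb from the matched Igf2r start into the gene (horizontal axis), 1 point per library and 1 panel per group. Grey bands mark the Igf2r and Airn promoter regions, where most iPSC values lie below those of the rest of the gene, with XO between 4.55% and 48.8% in the Airn tiles.

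Of 29 tiles of 1 kb with any read, 6 had at least 10 reads over CpGs in each of the 11 libraries of the replicated groups. They were tested among 101828 such tiles of the genome with a quasi-binomial model whose dispersion limma's squeezeVar moderated. A call needed 10 points of difference or more as well as a Benjamini-Hochberg adjusted p under 0.05. Differences of tested tiles, also those used for limma calls, are of levels pooled over the reads of a group. Deep libraries thus weigh more in them than in the region means. The other 23 tiles, where read by at least 10, spanned 13.9% to 84.6% in XaXa, 50% to 100% in XO, 40% to 100% in male iPSCs and 45.5% to 100% in MEFs.

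For XaXa minus XO, 5 of the 6 tiles were called, all lower in XaXa, where 77.4% of all tiles were called. The locus median was -19.7 points and the genome median -29.9 points. Limma on log ratios, which weighs libraries equally, called 2 of the 6, at 12919001 and 12969001. Over the genome it called 62112 of the 101828 tiles. The Airn tiles at 12934001 and 12935001 differed by -17.5 points (quasi-binomial adjusted p = 0.0128; limma adjusted p = 0.868) and -21.9 points (quasi-binomial adjusted p = 0.00609; limma adjusted p = 0.681). Those calls rested on the deep library XO 6. Without it the Airn differences were 4.196 and 6.03 points (quasi-binomial adjusted p = 0.436 and 0.202), and 2 tiles of the locus were called.

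For XaXa minus male iPSCs, 5 of the 6 tiles were called lower, where 73.0% of all tiles were called. Limma called 4, and 55928 of the 101828 over the genome. The Airn tile at 12935001 differed by -40.2 points (quasi-binomial adjusted p = 0.000484; limma adjusted p = 0.0136), and 12.6% of all tiles had a lower difference. Its neighbour at 12934001 differed by -28.8 points (quasi-binomial adjusted p = 0.00692; limma adjusted p = 0.108), near the genome median of -28.5 points. The Igf2r tile at 12962001 differed by -5.02 points (quasi-binomial adjusted p = 0.000115), short of the 10 points a call needs.

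For XO minus male iPSCs, 0 of the 6 tiles were called by the quasi-binomial model, where 0.410% of all tiles were called. At the locus 0 tiles had an unadjusted quasi-binomial p under 0.05, against 11340 of the 101828 over the genome. Limma called 0 tiles over the whole genome, so its 0 calls here say nothing about the locus. The Airn tiles had the most negative differences of the locus, -11.3 points (quasi-binomial adjusted p = 0.738) and -18.3 points (quasi-binomial adjusted p = 0.475), and 1.69% and 0.314% of all tiles had a lower one. The other 4 tiles differed by -3.93 to 0.987 points. As means of libraries, the Airn tile at 12934001 was at 19.4% in XO and 46.6% in male iPSCs. The Airn tile at 12935001 was at 25.7% in XO and 62.7% in male iPSCs. Without XO 6, 1 tile was called, the Airn tile at 12935001, which differed by -46.3 points (quasi-binomial adjusted p = 0.00829).

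For male iPSCs minus MEFs, 2 of the 6 tiles were called, where 23.9% of all tiles were called. Limma called 2, and 25495 of the 101828 over the genome. The Igf2r tile was lower in male iPSCs, with a difference of -17.4 points (quasi-binomial adjusted p = 0.000128; limma adjusted p = 0.013). The tile at 12919001, in the body of Igf2r (CpGs 12919056 to 12919280), was higher in male iPSCs by 21.9 points (quasi-binomial adjusted p = 0.018; limma adjusted p = 0.0258), and 95% of all tiles had a lower difference. Its level was 88.2%, 81.2% and 81.2% in male iPSC 1, 2 and 4, 39.0% and 47.6% in SSEA1 positive and negative cells, and 57.1% and 63.8% in MEF 4 and 5. Male iPSCs lay above all 4 of the others. The MEF and SSEA1 libraries read 3 CpGs there and the iPSCs 2, and on the 2 shared CpGs male iPSCs minus MEFs was 20.9 points (exact permutation p = 0.1, the smallest possible). At the first of them (12919056) male iPSC 1, 2 and 4 were at 86.5%, 81.8% and 84.4%, and MEF 4 and 5 at 33.3% and 0%, from 3 and 9 reads. At the other (12919280) male iPSCs were at 89.7%, 80% and 78.3% and MEF 4 and 5 at 63.6% and 80%, which overlapped. This tile could not be tested where every CpG had to have 5 reads or more in all 11 libraries. Without MEF 5, 1 tile was called.

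For XO minus MEFs, 3 of the 6 tiles were called, where 23.6% of all tiles were called. Limma called 4, and 25305 of the 101828 over the genome. The Igf2r tile differed by -18.1 points (quasi-binomial adjusted p = 3.14e-05), the tile at 12902001 by -16.7 points (quasi-binomial adjusted p = 0.0181) and the tile at 12919001 by 21.5 points (quasi-binomial adjusted p = 0.0155). The Airn tile at 12934001 differed by -34.8 points, which limma called (adjusted p = 0.0043) and the quasi-binomial model did not (adjusted p = 0.108). The Airn tile at 12935001 differed by -18.2 points and was called by neither (quasi-binomial adjusted p = 0.508; limma adjusted p = 0.0901). Without XO 6 both Airn tiles were called, at -56.5 points (quasi-binomial adjusted p = 0.00182) and -46.1 points (quasi-binomial adjusted p = 0.00282). This comparison shares its MEF libraries with the one before. Without MEF 5, 1 tile was called. For XaXa minus MEFs, 5 tiles were called lower, where 72.0% of all tiles were called. Limma called 5, and 63009 of the 101828 over the genome. The Airn tiles differed by -52.3 and -40.1 points and the Igf2r tile by -22.4 points (quasi-binomial adjusted p = 2.73e-07).

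The Airn level was compared with the level of each library over autosomal CpGs with at least 10 reads, since XaXa was lower over the genome. That level was 37.5% and 24.6% in XaXa 7 and 8, 49.2% to 58.3% in XO, 49.8% to 57.6% in male iPSCs and 55.6% to 60.03% in the other libraries. The Airn level divided by it was 0.510 ± 0.149 in XaXa (SD, n = 2), 0.449 ± 0.374 in XO (SD, n = 4), 1.05 ± 0.111 in male iPSCs (SD, n = 3) and 1.23 ± 0.330 in MEFs (SD, n = 2). XaXa minus male iPSCs was -0.535 (exact permutation p = 0.1, the smallest possible) and XO minus male iPSCs was -0.596 (exact permutation p = 0.0571; -0.497 without XO 3 and XO 9), so the female libraries lay lower in proportion as well. Divided by the level on the 20653 common CpGs, these differences were -0.580 and -0.614. The ratio was 0.0831, 0.203, 0.893 and 0.618 in XO 3, 5, 6 and 9. XO 3 thus joined the lowest Airn ratio to the highest autosomal level among iPSCs. XaXa minus XO was 0.0607 (exact permutation p = 0.933), and -0.0379 without XO 3 and XO 9.

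**Figure D4:**
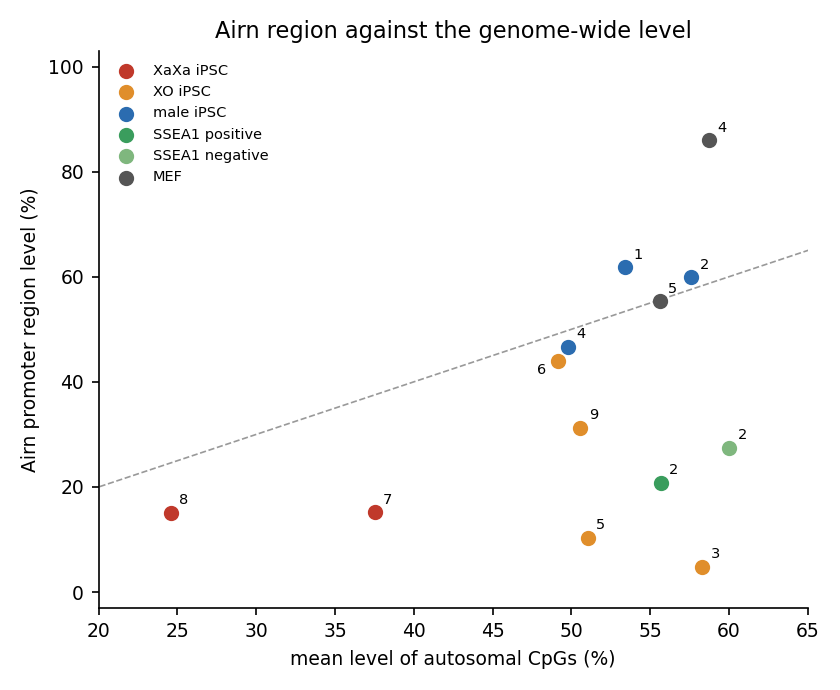
Level of the Airn promoter region in percent (vertical axis) against the mean level of autosomal CpGs in percent (horizontal axis, from 20%), 1 point per library with its replicate number, and a dashed line where both are equal. The autosomal CpGs are those with at least 10 reads in the library itself, so they differ between libraries. XaXa lies low on both axes, XO 3 and XO 5 are low on the vertical axis alone, and male iPSCs lie close to the line.

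Other maternally methylated control regions gave the scale for the Airn values, in windows placed from general knowledge. Kcnq1ot1 is, like Airn, an antisense RNA that starts inside its host gene and silences neighbours on the paternal copy. Its window was at 7.15% ± 0.765 in XaXa (SD, n = 2), 8.66% ± 9.73 in XO (SD, n = 4), 32.5% ± 22.1 in male iPSCs (SD, n = 3) and 34.8% ± 10.2 in MEFs (SD, n = 2). In XO 3, 5, 6 and 9 it was at 12.4%, 1.56%, 20.7% and 0%, the last from 6 reads over CpGs, so XO 6 was the highest of these libraries and XO 9 the lowest. Grb10, which encodes a growth factor receptor adaptor, was at 9.25% ± 2.40 in XaXa, 31.9% ± 21.2 in XO, 66.2% ± 10.4 in male iPSCs and 44.3% ± 7.19 in MEFs. In single libraries labelled XO it was at 15.3%, 15.5%, 59.8% and 37.0% in XO 3, 5, 6 and 9. XO 6 and XO 9 were the higher libraries at Grb10, as they were in the Airn region.

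Snrpn, the promoter of the Prader-Willi domain, was at 1.03%, 5.14%, 37.8% and 18.9% in XO 3, 5, 6 and 9, again with XO 6 and XO 9 higher, against 53.2%, 45.2% and 17.4% in male iPSC 1, 2 and 4. Here XO 6 and XO 9 overlapped the male iPSCs. XO 6 also lay above male iPSC 2 at Grb10 (59.8% against 54.4%) and at Kcnq1ot1 (20.7% against 14.6%). Mcts2, a retrogene in an intron of another gene, was at 2.17%, 10.1%, 0.398% and 0% in XO 3, 5, 6 and 9, and at 47.8%, 44.0% and 58.5% in male iPSC 1, 2 and 4. At Mcts2 XO 6 was among the lowest libraries, so the order of the XO libraries at Airn was not shared by Mcts2, nor by Kcnq1ot1. XaXa 7 and 8 were at 1.71% and 2.06% there, lower than the 15.2% and 15.1% of the Airn region. No test was made of differences between regions.

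**Figure D5:**
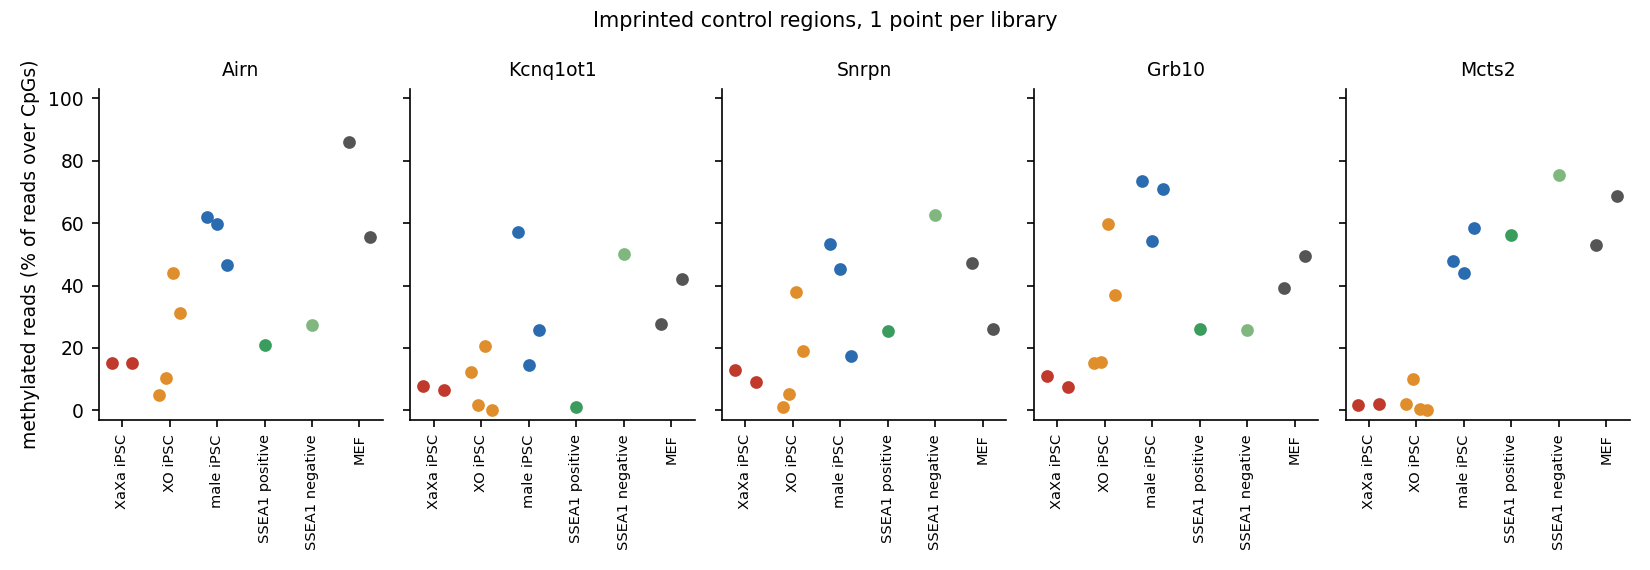
Level in percent of reads over CpGs (vertical axis) in the Airn promoter region and in 4 other imprinted control regions, 1 point per library, grouped by cell type along the horizontal axis. XaXa libraries stay at or below 15.2% in all 5 panels, and the libraries labelled XO spread widely in each but Mcts2.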

How the data were processed

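RRBS counts from 13 libraries were used. BSMAP and mm9 are the aligner and build named in the submitters' processing notes; the sources used here give no version, trimming or filter. The deposited tables give each CpG's count of reads and its methylated count, not normalised, per the file headers. The authors' fraction column is their quotient and was only checked. Nothing was deduplicated here, and RRBS reads share start sites, so intervals cover counting error only.

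Positions follow the deposited tables and are counted from 1. Levels were compared with exact two-sided permutation tests over libraries. Tiles were fitted over the 4 replicated groups with 1 mean each (quasi-binomial F test, squeezeVar of limma 3.58.1 in R 4.3.3, dispersion at least 1), which weighs deep libraries more, and with limma on log2 ratios of methylated to unmethylated reads, pseudocount 1. On simulated data with a spread that did not fall with depth, the quasi-binomial model made false calls, most for XaXa minus XO, and limma few, so both counts of calls are given. Python 3.11.15, numpy 2.4.6, pandas 2.3.3 and scipy 1.17.1 were used. All tiles passing the filter were named, with the deepest CpGs of each region. The region, the other windows and the tests were chosen with earlier results of these data known. Alternatives were another read minimum, unweighted means, common CpGs, narrower borders, a 2-group fit and each library left out; 1 CpG per block, common autosomal CpGs, the edge and the CpGs read in all libraries were added after seeing the data. SSEA1 libraries entered no test.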

Additional observations from a re-analysis of the deposited data

How the results depend on the processing

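No paired analysis was possible because the labels give no shared origin of libraries. The groups compared also share fewer than 2 replicate numbers. Of 231 alternative values of 20 region results, 212 kept their direction and 19 turned it. The 212 include the values with narrower borders, which equal the main ones because no CpG read lay in the margins. None passed 0.05, which most designs here cannot reach. Airn over the autosomal level, XaXa minus XO, was -0.00729 on CpGs with 5 reads, -0.0203 on common CpGs, -0.0379 without XO 3 and XO 9, and -0.0613 to 0.209 with single libraries left out. Igf2r, XO minus male iPSC, was -1.02 on CpGs with 5 reads, -5.71 unweighted, -0.114 on common CpGs, -0.498 with 1 CpG per block and -1.21 without XO 3 and XO 9. Airn minus Igf2r was -4.79 unweighted for male iPSC minus MEF, and with single libraries left out -16.1 to 20.1 there and -8.14 to 6.06 for XaXa minus XO. Airn, male iPSC minus MEF, was -29.8 to 0.740 with single libraries left out, and over the autosomal level -0.418 to 0.0487. The cause was not tested.

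Called tiles moved by over 1.5 times in 17 of 57 alternatives. At 20 reads, which left 2 tiles to test, the counts were 1 (XaXa minus XO), 1 (XaXa minus male iPSC), 1 (male iPSC minus MEF), 1 (XO minus MEF) and 2 (XaXa minus MEF). Common CpGs, also with 2 tiles, gave 1, 1 and 2 for the XaXa comparisons with XO, male iPSC and MEF. Limma called 2 for XaXa minus XO, and a fit of only the 2 groups called 9 of 10 for XaXa minus male iPSC. With single libraries left out, XaXa minus XO gave 2 to 7, XaXa minus male iPSC 3 to 5, XaXa minus MEF 3 to 4, XO minus male iPSC 0 to 1, male iPSC minus MEF 1 to 2 and XO minus MEF 1 to 4. Without XaXa 8 each XaXa comparison called 3. Shares over all tiles are not given for these alternatives, so their counts describe the locus alone. Common CpGs for Airn, XO minus MEF, were not run, since 0 CpGs qualified. Reads were few in MEF 4, XO 9, male iPSC 2 and the SSEA1 libraries, which limits their values.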
